A study of Homo sapiens with 31 samples.

Results

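The G2 and mitosis genes are 40 genes that act between the end of DNA replication and the division of the cell. They were taken from a fixed list of symbols, which was drawn up by known function but with earlier results of these data known, and all 40 were found among the 30667 genes of the UMI count table. In cycling cells their transcripts accumulate together late in the cycle and are cleared after division, so that in bulk RNA their level follows how many cells are in G2 and mitosis as well as how much each cell transcribes, and these cannot be told apart here. Their promoters are held down in resting and G1 cells by the DREAM complex and are switched on by B-MYB and FOXM1 on the same MuvB core, at a short element called the CHR, together with NF-Y at CCAAT boxes. CDKN1A (p21), an inhibitor of cyclin-dependent kinases, is the usual brake on this program.

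By role, 7 of the 40 genes form the engine of mitotic entry: the kinase CDK1, its cyclins CCNB1, CCNB2 and CCNA2, its small subunits CKS1B and CKS2, and the activating phosphatase CDC25C. The mitotic kinases AURKA, AURKB and PLK1 were grouped with the passenger protein CDCA8. The spindle checkpoint and the anaphase-promoting complex (APC/C) with its substrate were represented by BUB1, BUB1B, BUB3, TTK, CDC20, UBE2C and CDCA3, and the kinetochore and centromere by NDC80, NUF2, CENPA, CENPE and CENPF. The spindle and motor genes were TPX2, NUSAP1, KIF11, KIF20B, KIF2C, TACC3, HMMR, DLGAP5 and GTSE1, and KIF23, ANLN and ECT2 act in cytokinesis. The last group, chromosome structure and nuclear envelope, held TOP2A, SMC4, HMGB2, MKI67 and LBR.

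The cells were NALM-6, a human B-cell precursor acute lymphoblastic leukemia line, transduced with 1 of 4 lentiviral constructs in which the EF1a or the stronger SFFV promoter drove a hairpin against XIAP, an inhibitor of caspases, or a control hairpin (sh-CTRL). In the study's terms the knockdown is moderate with EF1a/sh-XIAP and strong with SFFV/sh-XIAP, so the 2 knockdowns also differ in promoter and each was set against sh-CTRL under its own promoter. At days 4, 10 and 13 after transduction there were 3, 3 and 3 samples with EF1a/sh-CTRL, 2, 2 and 3 with EF1a/sh-XIAP, 3, 2 and 2 with SFFV/sh-CTRL, and 2, 3 and 3 with SFFV/sh-XIAP. The sample labels place the cells in vitro, whereas the design text speaks of mouse bone marrow; the sample labels were followed. Nothing in the labels says that replicates were separate transductions or cultures, so p-values measure the spread between these samples, which may be technical, and 1 hairpin against XIAP in 1 cell line was used.

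Total UMIs (unique molecular identifiers, 1 for each captured RNA molecule) ranged from 312852 to 1153668 in a sample, with a median of 603822, and the 40 genes together held 1505 to 5850 UMIs, 0.470% to 0.528% of the total. The lowest depths were those of EF1a/sh-XIAP day 10 replicate 2 (315055) and SFFV/sh-XIAP day 10 replicate 2 (312852), called the shallow libraries below. SFFV/sh-CTRL day 13 replicate 1 followed closely (351081). All 15 B-cell precursor markers were detected, with a summed level of 5006 to 5685 CPM (UMIs scaled to a common total for all samples), against at most 22.8 CPM for the T-cell, 25.6 for the myeloid, 5.29 for the erythroid and 6.91 for the stromal and endothelial markers. XIAP itself gave only 2 to 14 UMIs per sample. At days 10 and 13 it was at 8.86 ± 3.06 CPM (n = 6, SD) with SFFV/sh-XIAP and 10.2 ± 4.72 CPM (n = 4, SD) with SFFV/sh-CTRL, and at 9.62 ± 1.45 CPM (n = 5, SD) with EF1a/sh-XIAP and 10.8 ± 4.67 CPM (n = 6, SD) with EF1a/sh-CTRL. The log2 fold changes were −0.26 (standard error 0.395, adjusted p = 0.975) and −0.17 (standard error 0.367, adjusted p = 0.994) in limma-voom. A fall in counted XIAP RNA was thus not called in either comparison. The study measured its knockdown as XIAP protein, by Western blot, which these RNA counts do not measure.

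The promoters of these genes were searched for the elements named above. RefSeq promoter sequence on GRCh38.p14 was at hand for 34 of the 40 genes, in 41 entries. In the 250 bases before the start site, on either strand, the CHR core TTTGAA occurred in 53.7% of these entries and in 13.3% of all 35116 promoter entries, and the CCAAT box in 68.3% against 32.0%. The longer form TTTGAAT was in 26.8% against 3.30%, and both CCAAT and TTTGAA in 43.9% against 4.69%. The median position of CCAAT was 87 bases before the start and that of TTTGAA 30 bases before it. Of the CCAAT matches 39 of 61, and of the TTTGAA matches 21 of 30, lay within 100 bases of the start. A match is a run of letters and not a measured binding site. In the following stretches, which lie just before the start site, overlap no annotated exon and are shown because they hold several of these matches close together, capitals mark CCAAT or its reverse ATTGG and TTTGAA or its reverse TTCAAA.
CKS2, chr9:89311117-89311179 on the plus strand: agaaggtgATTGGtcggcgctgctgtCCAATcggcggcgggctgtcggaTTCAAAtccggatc
CDC20, chr1:43358873-43358938 on the plus strand: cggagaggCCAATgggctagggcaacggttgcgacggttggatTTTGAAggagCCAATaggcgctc
CENPF, chr1:214603093-214603174 on the plus strand: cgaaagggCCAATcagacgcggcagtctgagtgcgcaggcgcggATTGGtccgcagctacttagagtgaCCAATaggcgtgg
KIF11, chr10:92593069-92593115 on the plus strand: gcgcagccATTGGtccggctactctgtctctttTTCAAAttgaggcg
ECT2, chr3:172750603-172750680 on the plus strand: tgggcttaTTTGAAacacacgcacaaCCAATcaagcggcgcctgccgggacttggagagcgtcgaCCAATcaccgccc
MKI67, chr10:128126435-128126529 on the minus strand: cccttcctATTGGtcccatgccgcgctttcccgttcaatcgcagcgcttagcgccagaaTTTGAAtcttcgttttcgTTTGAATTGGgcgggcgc

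CKS2, CDC20, KIF11, ECT2 and MKI67 carried both elements in these stretches, and CENPF carried CCAAT boxes alone. In MKI67 the last TTTGAA and ATTGG share bases.

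As a group, the 40 genes were expressed at nearly one level in all samples. The module level, the mean over the 40 genes of log2 CPM (TMM-normalized, prior count 2), was 6.33 ± 0.0549 (SD, n = 31; 6.21 to 6.44) over the 31 samples. By day it was 6.31 at day 4, 6.33 at day 10 and 6.33 at day 13. The means of the 12 groups of construct and day lay within a range of 0.13 on this log2 scale, and the SD of samples within those groups was 0.051. At days 10 and 13 the level was 6.36 ± 0.0415 (SD, n = 6; 6.32 to 6.43) with EF1a/sh-CTRL, 6.33 ± 0.0547 (SD, n = 5; 6.27 to 6.39) with EF1a/sh-XIAP, 6.35 ± 0.0645 (SD, n = 6; 6.24 to 6.44) with SFFV/sh-XIAP and 6.26 ± 0.0462 (SD, n = 4; 6.21 to 6.32) with SFFV/sh-CTRL. The lowest group was thus SFFV/sh-CTRL, and its range overlapped those of the other 3 constructs. SFFV/sh-XIAP was above it by 0.088 with TMM, by 0.039 with DESeq2 size factors and by 0.034 when the CPM of the genes were summed first. These levels are descriptions of a chosen list and were given no test. The level of 50 S phase DNA replication genes, computed the same way, was 6.55 ± 0.0548 (SD, n = 31; 6.42 to 6.66) over the 31 samples, and it too was lowest in SFFV/sh-CTRL at days 10 and 13 at 6.50 ± 0.0403 (SD, n = 4; 6.47 to 6.56) and highest in EF1a/sh-CTRL at 6.60 ± 0.0437 (SD, n = 6; 6.54 to 6.66).

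**Figure D1:**
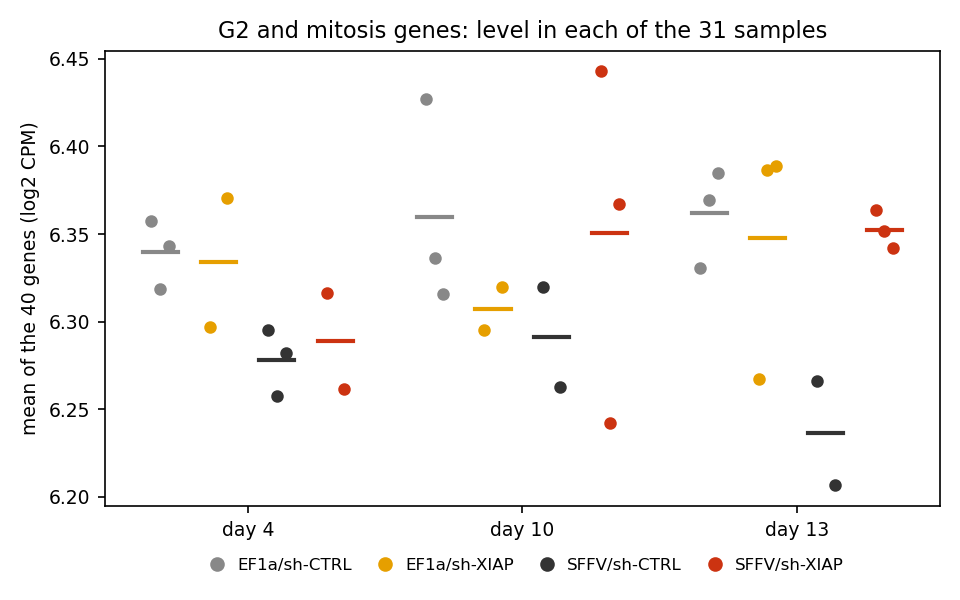
Module level (mean log2 CPM of the 40 genes, vertical axis) in each of the 31 samples by day and construct; points are samples and bars are group means. All samples lie between 6.21 and 6.44, and the SFFV/sh-CTRL samples of days 10 and 13 lie between 6.21 and 6.32.

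Within the group, levels spanned more than 2 orders of magnitude. Because each molecule is counted once at its 3′ end, CPM does not grow with transcript length and was compared between genes as it stands. HMGB2, a DNA-bending chromatin protein, was the most abundant at 1340 ± 73.8 CPM (SD, n = 31; 27408 UMIs in all), followed by TOP2A at 317 CPM and the checkpoint protein BUB3 at 313 CPM. NUSAP1, a microtubule-bundling protein, was the least abundant at 7.43 ± 3.82 CPM (SD, n = 31; 151 UMIs in all) and had no UMI in 1 sample, SFFV/sh-XIAP day 10 replicate 2. All 40 genes passed the filter on low counts in each fit. After group means were removed, the median Pearson r over the 780 pairs of these genes was 0.014 across the 31 samples, which share library depth and normalization and in which counts per gene are low.

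**Figure D2:**
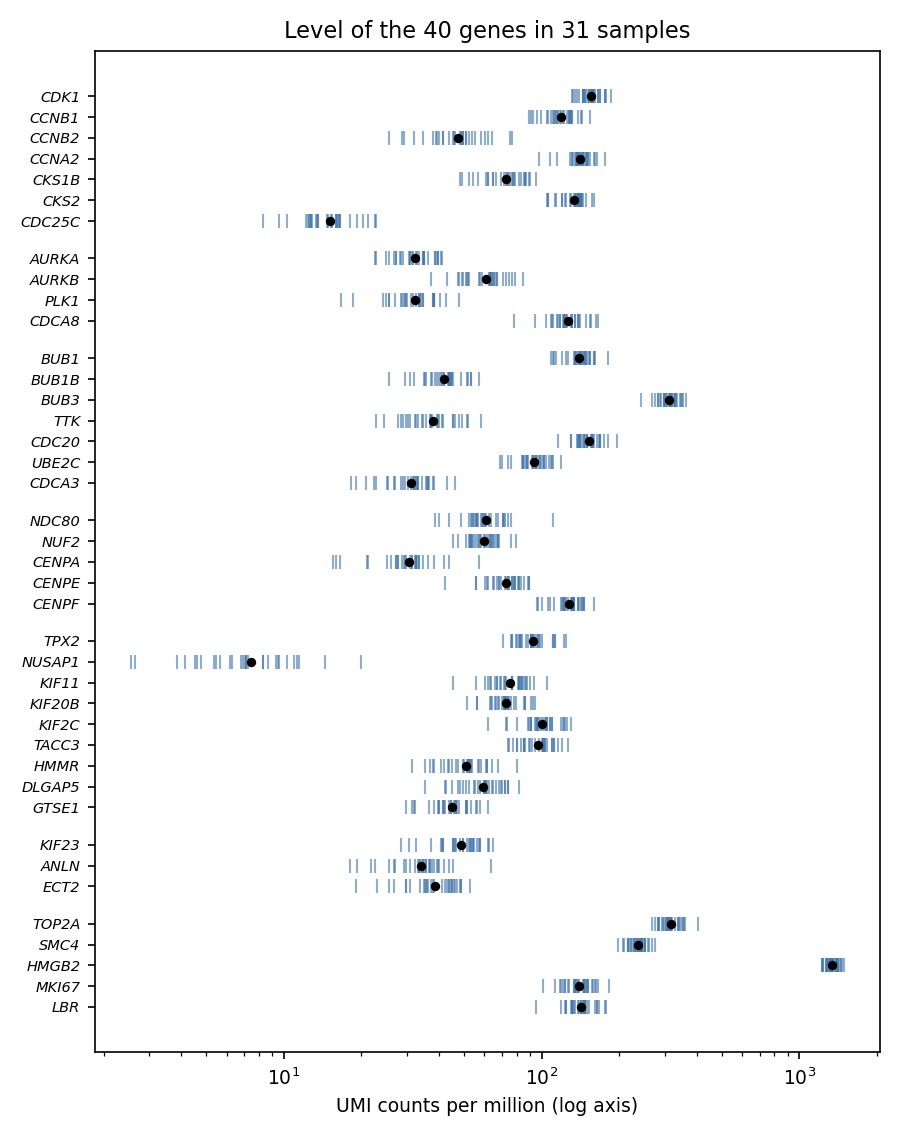
Level of each of the 40 genes (horizontal axis, CPM, log axis), grouped by role from CDK1 and its partners at the top to chromosome structure at the bottom. Ticks are the 31 samples and black points their mean; the sample of NUSAP1 at 0 cannot be drawn on the log axis.

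The first question was whether strong XIAP KD changes these genes at days 10 and 13. Samples with SFFV/sh-XIAP (n = 6) were compared with their SFFV/sh-CTRL controls (n = 4). In limma-voom 0 of the 40 genes had an adjusted p of 0.25 or less, against 0.0792% of the 17683 genes tested. An unadjusted p under 0.05 was found for 2 of the 40 (5%), against 5.59% of all genes tested. Of the 40, 24 had a higher and 16 a lower estimate with strong KD, against 8357 higher and 9326 lower of all genes tested. The 40 estimates share the same samples and scaling and are not separate observations. Their median log2 fold change was 0.033, against −0.018 over all genes tested. The 95% interval lay within 1.5-fold either way for 32 of the 40 genes and within 2-fold for 39, NUSAP1 being the exception. In 0 of the 40 genes were the CPM ranges of the groups apart, against 1.23% of all genes tested.

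CDK1 and its partners held both genes with an unadjusted p under 0.05. CDK1, the kinase that drives entry into mitosis, was at 153 and 131 CPM at day 10 and 137 and 132 CPM at day 13 with SFFV/sh-CTRL. With SFFV/sh-XIAP it was at 157, 134 and 168 CPM at day 10 and 165, 177 and 159 CPM at day 13. Total UMIs at days 10 and 13 ran from 351081 (day 13 replicate 1) to 520334 (median 464457) with SFFV/sh-CTRL. They ran from 312852 (day 10 replicate 2) to 1148669 (median 708866.5) with SFFV/sh-XIAP. For CDK1, all samples with strong KD but day 10 replicate 2 lay above the control range. The means were 159.9 ± 14.5 CPM (n = 6, SD) and 138 ± 10.3 CPM (n = 4, SD), with an exact two-sided permutation p of 0.0286 (the only one below 0.05 among 9 genes so tested) and a log2 fold change of 0.23 (standard error 0.0997; 95% interval 0.03 to 0.43), which did not pass over all genes (adjusted p = 0.815 from limma-voom). The log2 fold change was 0.18 from the day 10 and 0.31 from the day 13 samples alone, and 0.26 without both shallow libraries, with adjusted p of 0.615 to 0.976. CCNB2, the second B-type cyclin, was at 49.5 and 28.8 CPM at day 10 and 25.6 and 45.4 CPM at day 13 with SFFV/sh-CTRL. It was at 62.0, 32.0 and 46.1 CPM at day 10 and 60.2, 50.8 and 53.9 CPM at day 13 with SFFV/sh-XIAP. The ranges overlapped, and the log2 fold change was 0.46 (standard error 0.210; 95% interval 0.034 to 0.88), with an adjusted p of 0.854 from limma-voom and an exact permutation p of 0.0952. CCNB1, the main partner of CDK1 in mitosis, was at 113 and 96.1 CPM at day 10 and 131 and 90.8 CPM at day 13 with SFFV/sh-CTRL and at 122, 89.5 and 128 CPM at day 10 and 129, 118 and 128 CPM at day 13 with SFFV/sh-XIAP, overlapping throughout, with a log2 fold change of 0.21 (adjusted p = 0.922, standard error 0.123). CKS2, a small subunit that docks CDK1 on its substrates, stood at 128 and 142 CPM at day 10 and 105 and 105 CPM at day 13 with the control and at 135, 157 and 136 CPM at day 10 and 138, 142 and 160.1 CPM at day 13 with strong KD. For CKS2 the ranges overlapped at day 10 and over both days together, and were apart at day 13 alone. Ranges are often apart with so few samples, and the share of all genes apart at day 13 was not computed. The log2 fold change of CKS2 over both days was 0.21 (adjusted p = 0.917 in limma-voom, standard error 0.116).

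Of these 7 genes, 6 had a higher estimate with strong KD, and CDC25C was at −0.028 on the log2 scale. Their mean log2 CPM was 6.43 ± 0.0515 (SD, n = 6; 6.36 to 6.51) with SFFV/sh-XIAP and 6.20 ± 0.0442 (SD, n = 4; 6.17 to 6.26) with SFFV/sh-CTRL. It was the only 1 of the 7 role groups in which these 2 constructs did not overlap. Between the 2 control constructs 2 of the 7 groups did not overlap, and with moderate KD 0 of the 7. The mean of CDK1 and its partners was 6.38 ± 0.0617 (SD, n = 6; 6.30 to 6.45) with EF1a/sh-CTRL and 6.34 ± 0.0681 (SD, n = 5; 6.24 to 6.41) with EF1a/sh-XIAP. The level of strong KD minus that of its control was 0.23 with TMM, 0.18 with DESeq2 size factors and 0.21 with no scaling factor. The ranges were apart under each, but these scalings use the same counts and are not separate observations. SFFV/sh-CTRL had the lowest and SFFV/sh-XIAP the highest mean of the 4 constructs. Over both days SFFV/sh-CTRL lay below EF1a/sh-CTRL and overlapped EF1a/sh-XIAP, while SFFV/sh-XIAP overlapped both EF1a constructs. At day 13 alone and with TMM, SFFV/sh-XIAP (6.43 to 6.51, n = 3) lay just above every sample of the other 3 constructs. The highest of these was an EF1a/sh-CTRL sample at 6.42. With DESeq2 size factors SFFV/sh-XIAP replicate 3 was at 6.418, below EF1a/sh-XIAP replicate 1 at 6.45. With no scaling factor these 2 samples were at 6.402 and 6.434, so the separation at day 13 depended on the scaling. The role groups were drawn up with earlier results of these data known, and the level was not tested.

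**Figure D3:**
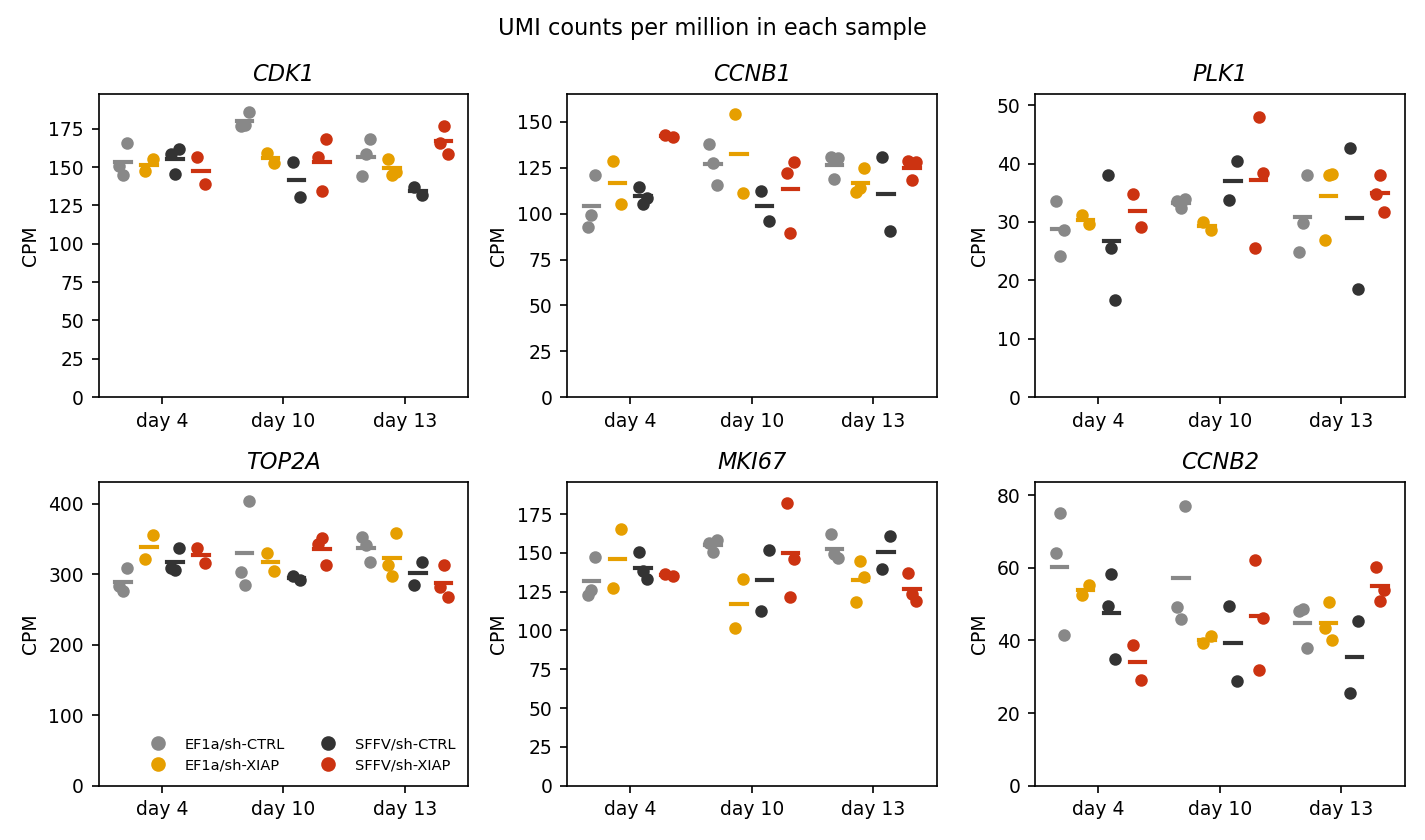
CPM (vertical axes, from 0) of CDK1, CCNB1, PLK1, TOP2A, MKI67 and CCNB2 in each sample by day and construct; points are samples and bars group means. Over days 10 and 13 the ranges of SFFV/sh-XIAP and SFFV/sh-CTRL overlap for every gene shown.

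The other roles gave no gene with an unadjusted p under 0.05 with strong KD. Among the kinases, PLK1, which acts from centrosome maturation to cytokinesis, was at 33.8 and 40.4 CPM at day 10 and 42.7 and 18.6 CPM at day 13 with SFFV/sh-CTRL and from 25.5 to 47.9 CPM (median 36.4) with SFFV/sh-XIAP, and the log2 fold change was 0.11 (adjusted p = 0.986, standard error 0.219). AURKA, the centrosomal kinase, had a log2 fold change of −0.27 and AURKB, the kinase of the passenger complex, one of 0.12. In the spindle checkpoint and APC/C group, estimates ran from −0.046 for UBE2C, the E2 enzyme of the APC/C, to 0.22 for CDCA3. At the kinetochore NUF2, a subunit of the NDC80 complex that holds microtubules, was at 63.0 and 59.6 CPM at day 10 and 62.7 and 66.0 CPM at day 13 with SFFV/sh-CTRL. With SFFV/sh-XIAP it ran from 47.6 to 67.1 CPM (median 53.0), and its log2 fold change was −0.22 (adjusted p = 0.935, standard error 0.154). NUSAP1 was at 11.3 and 3.84 CPM at day 10 and 19.9 and 4.13 CPM at day 13 with the control and at 10.9, 0 and 8.71 CPM at day 10 and 5.64, 2.54 and 4.76 CPM at day 13 with strong KD. The control sample at 19.9 CPM was the highest of all 31, and the log2 fold change of NUSAP1, the only one over 1.5-fold, was −0.61 (standard error 0.477; 95% interval −1.57 to 0.35). In cytokinesis ECT2, the exchange factor that activates RhoA at the cleavage furrow, was at 0.44 (adjusted p = 0.918, standard error 0.252) on the log2 scale.

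Among the chromosome genes, TOP2A, which untangles sister chromatids, was at 297 and 292 CPM at day 10 and 285 and 318 CPM at day 13 with SFFV/sh-CTRL and from 268 to 352 CPM (median 313) with SFFV/sh-XIAP, and its log2 fold change was 0.011 (standard error 0.0874; 95% interval −0.17 to 0.19). MKI67, the coat protein of mitotic chromosomes used as the Ki-67 proliferation marker, was at 113 and 152 CPM at day 10 and 139.6 and 161 CPM at day 13 with the control and ran from 119 to 182 CPM (median 130.2) with strong KD, and the log2 fold change was −0.053 (standard error 0.117; 95% interval −0.29 to 0.18). HMGB2, with the smallest standard error of the 40, was at 1468 and 1338 CPM at day 10 and 1449.8 and 1287 CPM at day 13 with SFFV/sh-CTRL and from 1279 to 1392 CPM (median 1318) with SFFV/sh-XIAP. Its log2 fold change was −0.063 (standard error 0.0355; 95% interval −0.13 to 0.0084), with an adjusted p of 0.917, and it was −0.0017 without SFFV/sh-CTRL day 10 replicate 1. The ranges of these 3 genes overlapped between the groups.

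**Figure D4:**
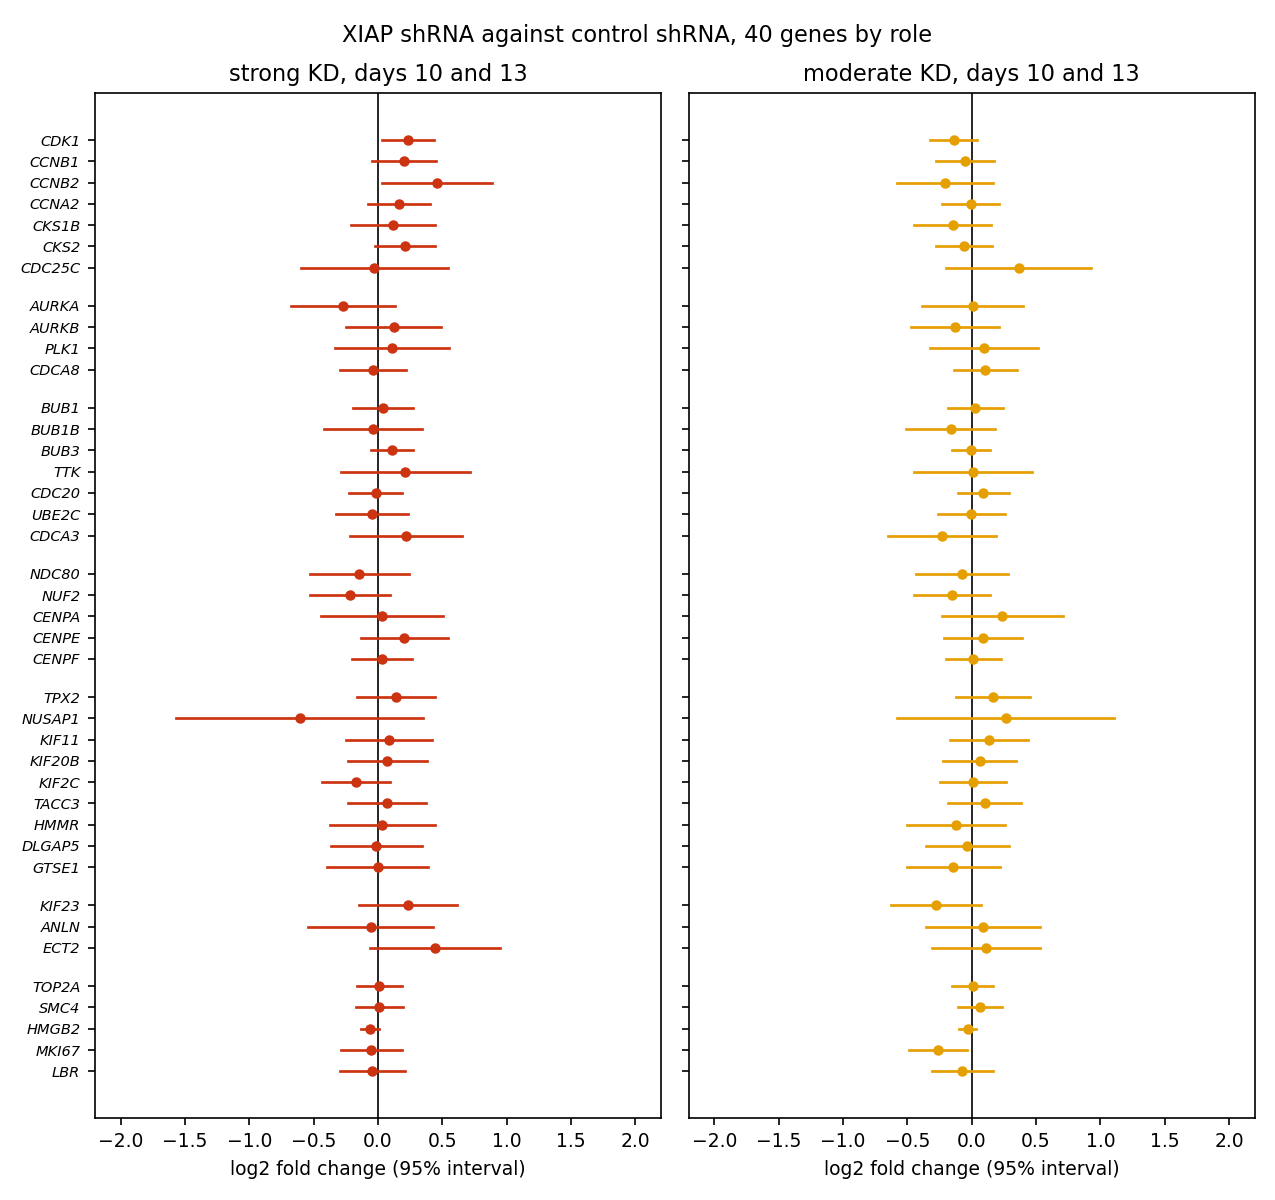
Log2 fold change (horizontal axis) of each of the 40 genes with its 95% interval, for strong KD on the left and moderate KD on the right at days 10 and 13, ordered by role. With strong KD the intervals of CDK1 and CCNB2 lie above 0, and with moderate KD that of MKI67 lies below 0; no gene reached an adjusted p of 0.25 in either comparison.

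With moderate XIAP KD, EF1a/sh-XIAP (n = 5) against EF1a/sh-CTRL (n = 6), again 0 of the 40 genes passed limma-voom, against 0.017% of all genes tested. An unadjusted p under 0.05 was found for 1 of the 40 (2.5%), against 4.63% of all genes tested. Estimates were higher for 20 genes and lower for 20 (9085 and 8598 over all genes). The median was 0.0023 (0.0086 over all genes), and 35 intervals lay within 1.5-fold. MKI67 was at 101 and 133 CPM at day 10 and 118, 145 and 135 CPM at day 13 with EF1a/sh-XIAP. With EF1a/sh-CTRL it ran from 146 to 162 CPM (median 153). Every knockdown sample was below every control sample, and MKI67 was the only 1 of the 40 genes whose ranges were apart, against 0.424% of all genes tested. The means were 126 ± 16.9 CPM (n = 5, SD) and 154 ± 6.13 CPM (n = 6, SD), with an exact two-sided permutation p of 0.00433. The log2 fold change was −0.26 (standard error 0.111; 95% interval −0.48 to −0.035), and over all genes the adjusted p was 0.992 in limma-voom. The fold change was −0.43 from the day 10 and −0.21 from the day 13 samples alone, and −0.27 without both shallow libraries. KIF23, the motor of the central spindle, was at 44.0 ± 8.87 CPM with EF1a/sh-XIAP and 54.7 ± 4.38 CPM with EF1a/sh-CTRL, with an exact permutation p of 0.0433 and an adjusted p of 0.992 from limma-voom. MKI67 and KIF23 were the 2 of 10 genes so tested with an exact p below 0.05; KIF23 was among the 10 because of its limma-voom p in the same samples, so its exact p adds no separate evidence.

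The other named genes had overlapping ranges with moderate KD. CDC25C, the phosphatase that activates CDK1, was at 16.1 and 12.7 CPM at day 10 and 16.6, 18.1 and 15.3 CPM at day 13 with EF1a/sh-XIAP and from 8.28 to 16.3 CPM (median 12.7) with EF1a/sh-CTRL, and the log2 fold change was 0.36 (adjusted p = 0.992, standard error 0.278). TPX2, which targets AURKA to the spindle, was at 111 and 82.5 CPM at day 10 and 87.1, 81.5 and 113 CPM at day 13 and from 70.5 to 122 CPM (median 86.9), with a log2 fold change of 0.17 (adjusted p = 0.992, standard error 0.143), which was 0.036 without EF1a/sh-XIAP day 13 replicate 3. CDK1 was at 159 and 152 CPM at day 10 and 155, 145 and 147 CPM at day 13 with EF1a/sh-XIAP and from 144 to 186 CPM (median 173) with EF1a/sh-CTRL. Its estimate, −0.14, had the opposite sign to that of strong KD. CCNB1 was at −0.052, PLK1 at 0.10, TOP2A at 0.0071 and HMGB2 at −0.031 on the log2 scale.

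The difference between the 2 knockdowns was itself tested. For the strong minus the moderate KD effect 0 of the 40 genes passed, against 0.00566% of all genes tested, and the median was 0.016 (−0.025 over all genes). CDK1 had the smallest p of the 40, with a difference of 0.37 (standard error 0.135; 95% interval 0.10 to 0.64) on the log2 scale (unadjusted p = 0.00891, adjusted p = 0.964 from limma-voom), and CCNB2 followed at 0.66 (standard error 0.282; 95% interval 0.095 to 1.23). The lowest p of the lower genes were those of NUSAP1 at −0.87 (95% interval −2.15 to 0.41) and KIF2C, a kinesin that takes microtubules apart, at −0.18 (95% interval −0.55 to 0.19). The direction of NUSAP1 was not stable: the value was 0.25 from the day 10 samples alone and −0.45 without SFFV/sh-CTRL day 13 replicate 1, and that of KIF2C was −0.074 without EF1a/sh-CTRL day 10 replicate 2. The interval lay within 1.5-fold either way for 20 of the 40 genes.

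Strong KD was also set against the mean of the other 3 constructs, which shares its samples with the comparisons above. Here 0.837% of all genes passed and 0 of the 40. HMGB2 came nearest, at −0.07 (standard error 0.0234; 95% interval −0.12 to −0.023) on the log2 scale with an adjusted p of 0.347; with DESeq2 size factors in place of TMM it passed (−0.083, adjusted p = 0.154), and without SFFV/sh-XIAP day 13 replicate 2 it was −0.034. Its means at days 10 and 13 were 1325 ± 42.0 CPM (n = 6, SD) with SFFV/sh-XIAP, 1386 ± 87.2 CPM (n = 4, SD) with SFFV/sh-CTRL, 1382 ± 36.5 CPM (n = 5, SD) with EF1a/sh-XIAP and 1407 ± 54.2 CPM (n = 6, SD) with EF1a/sh-CTRL. CKS2 was at 0.16 (adjusted p = 0.756, standard error 0.0796) and CCNB2 at 0.26 (adjusted p = 0.803, standard error 0.140) on the log2 scale, and NUSAP1 at −0.74 (adjusted p = 0.752, standard error 0.357). Intervals of 39 of the 40 genes lay within 1.5-fold in this comparison, again without NUSAP1.

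The 2 control constructs differ in promoter and were compared with each other; a difference between the transduced cultures cannot be told apart from one of the promoter. SFFV/sh-CTRL enters this comparison as well as that of strong KD, so a low value there lowers one and raises the other. Against EF1a/sh-CTRL, 0.00566% of all genes passed in limma-voom and 0 of the 40. Of the 40 genes 30 had a lower and 10 a higher estimate with SFFV/sh-CTRL, against 8396 lower and 9287 higher of all genes tested. The median was −0.082, against 0.016 over all genes. All 40 estimates rest on the same 4 SFFV/sh-CTRL samples and their scaling. CDK1 was at 177, 177 and 186 CPM at day 10 and 144, 158 and 168 CPM at day 13 with EF1a/sh-CTRL. These lie above the SFFV/sh-CTRL samples given before except for 144 CPM, and the log2 fold change was −0.27 (standard error 0.101; 95% interval −0.47 to −0.065), with an adjusted p of 0.923. CCNB1 was at 138, 128 and 116 CPM at day 10 and 131, 119 and 130.2 CPM at day 13 with EF1a/sh-CTRL, and its log2 fold change was −0.27 (standard error 0.125; 95% interval −0.52 to −0.018). KIF2C went the other way at 0.26, as did CENPA, the histone variant that marks centromeres, at 0.32. The level of the chromosome structure group also did not overlap between the 2 controls, being 8.16 ± 0.0580 (SD, n = 4; 8.08 to 8.20) with SFFV/sh-CTRL and 8.26 ± 0.0437 (SD, n = 6; 8.22 to 8.33) with EF1a/sh-CTRL.

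Time gave the one call among the 40 genes. HMGB2 rose from day 4 to day 13. It ran from 1219 to 1332 CPM (median 1270.3) in the 10 samples of day 4, from 1314 to 1468 CPM (median 1350.1) in the 10 of day 10 and from 1279 to 1489.6 CPM (median 1392) in the 11 of day 13. The ranges overlapped, and 8 of 11 samples of day 13 and 7 of 10 of day 10 lay above the highest of day 4. The means were 1269 ± 42.6 CPM (n = 10, SD), 1365 ± 49.0 CPM (n = 10, SD) and 1382 ± 70.9 CPM (n = 11, SD). From day 4 to day 13 the log2 fold change was 0.12 (standard error 0.0208; 95% interval 0.083 to 0.17), a rise of 8.84% in mean CPM, with an adjusted p of 0.000611 in limma-voom, where 0.515% of 17676 genes passed. The mean was higher at day 13 with each construct, most in EF1a/sh-XIAP (13.1%), followed by EF1a/sh-CTRL (10.3%), SFFV/sh-CTRL (8.87%) and SFFV/sh-XIAP (3.88%). Depth differed by day, with medians of 751952.5, 482267 and 603822 UMIs at days 4, 10 and 13. The difference held with log2 total UMIs as a covariate (adjusted p = 0.000833) and without each sample in turn (log2 fold change 0.11 to 0.14), but missed the threshold in the edgeR quasi-likelihood test at nearly the same size (log2 fold change 0.12, adjusted p = 0.293). From day 4 to day 10 it was 0.077 (adjusted p = 0.391, standard error 0.0227) and from day 10 to day 13 0.043 (adjusted p = 0.983, standard error 0.0220), neither of which passed. The labels give no sequencing or sorting batch, so a batch that follows the day cannot be told apart from it.

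CDKN1A, the p21 brake on these kinases and the only gene of the wider cell cycle lists to pass in any comparison, went the opposite way. It ran from 399.5 to 464 CPM (median 439) at day 4, from 329 to 390.1 CPM (median 376) at day 10 and from 305 to 412 CPM (median 366) at day 13. All 10 samples of day 10 and 8 of 11 samples of day 13 lay below the lowest of day 4. The means were 434 ± 22.5 CPM (SD, n = 10), 365 ± 24.3 CPM (SD, n = 10) and 367 ± 32.5 CPM (SD, n = 11). CDKN1A fell by 0.27 on the log2 scale from day 4 to day 10 (standard error 0.0423, adjusted p = 9.31e-05 in limma-voom) and by 0.27 from day 4 to day 13 (standard error 0.0392, adjusted p = 3.98e-05). It passed with the edgeR quasi-likelihood test and with DESeq2 as well (adjusted p = 0.000563 and 7.39e-05 for day 13 against day 4).

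**Figure D5:**
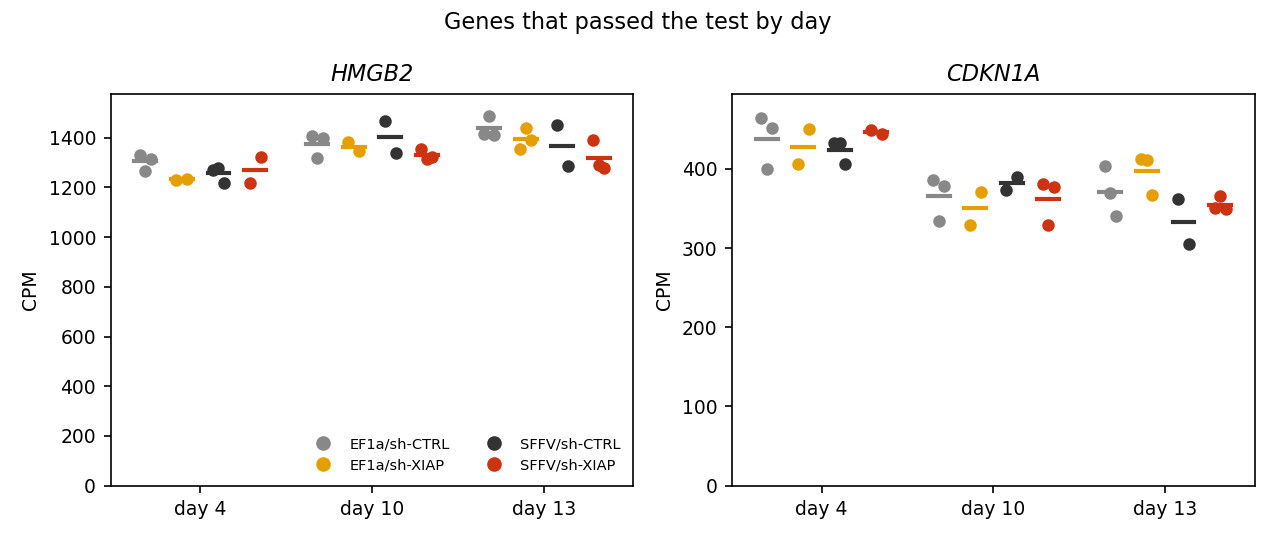
CPM (vertical axes, from 0) of HMGB2 and CDKN1A in each sample by day and construct; points are samples and bars group means. HMGB2 means are 1269 CPM at day 4 and 1382 at day 13, and every CDKN1A sample of day 10 is below every sample of day 4.

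The rest of the 40 genes did not pass with time. Between day 4 and day 10, 0.26% of all genes passed, and between day 10 and day 13 0.0452%. The member medians were 0.034 for day 10 against day 4, 0.017 for day 13 against day 4 and 0.015 for day 13 against day 10, and the 95% intervals of 39 of the 40 genes lay within 1.5-fold in each of the 3 comparisons. BUB1B, the checkpoint kinase-like protein BUBR1, was at 38.3 ± 4.54 CPM at day 4 and 46.7 ± 7.39 CPM at day 10, and the log2 fold change was 0.26 (adjusted p = 0.721, standard error 0.113). KIF11, the motor that pushes spindle poles apart, was at 80.7 ± 10.4 CPM at day 4, 72.3 ± 15.7 CPM at day 10 and 74.1 ± 9.93 CPM at day 13, with −0.19 (adjusted p = 0.817, standard error 0.103) for day 10 and −0.14 (adjusted p = 0.877, standard error 0.0951) for day 13 against day 4. CKS1B was at 66.3 ± 11.9 CPM at day 4 and 76.4 ± 12.003 CPM at day 13, and the log2 fold change was 0.22 (adjusted p = 0.730, standard error 0.102). CDCA8 (borealin) was at 137 ± 15.6 CPM at day 10 and 118 ± 18.3 CPM at day 13, and the log2 fold change was −0.21 (adjusted p = 0.983, standard error 0.0850). CKS2 at −0.10 for day 10 against day 4, CDCA3 at 0.20 and AURKB at −0.16 for day 13 against day 10 followed.

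Both knockdown comparisons were then made with the samples of day 4. With strong KD at day 4 (n = 2 against 3), 0.0109% of 18336 genes passed and 0 of the 40, whose median was −0.0049. CCNB1 was at 143 and 142 CPM with SFFV/sh-XIAP and 114, 105 and 109 CPM with SFFV/sh-CTRL. The 2 knockdown samples were above the 3 controls, with a log2 fold change of 0.36 (standard error 0.146; 95% interval 0.069 to 0.65) and an adjusted p of 0.979. KIF11 was at 60.1 and 66.2 CPM with strong KD and 81.4, 83.7 and 87.6 CPM with the control, so that the knockdown samples were the lower ones. Its log2 fold change was −0.41 (standard error 0.185, 95% interval −0.78 to −0.038). Ranges are often apart at 2 against 3 samples, and the share of all genes with ranges apart at day 4 was not computed. KIF11 was named here for its small p in these same samples. DLGAP5, a spindle assembly factor, was at 0.41 and CKS1B at −0.38 on the log2 scale. CDK1 was at 156 and 139 CPM with SFFV/sh-XIAP and 159, 145 and 162 CPM with SFFV/sh-CTRL, overlapping.

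With moderate KD at day 4 (n = 2 against 3), 0.0491% of genes passed and 0 of the 40, with a median of 0.028. TOP2A was at 321 and 355 CPM with EF1a/sh-XIAP and 283, 276 and 309 CPM with EF1a/sh-CTRL. Both knockdown samples were the higher, which is frequent at 2 against 3 samples. The log2 fold change was 0.24 (standard error 0.0868, 95% interval 0.061 to 0.41), with an adjusted p of 0.976 from limma-voom. At days 10 and 13 TOP2A stood at 0.0071. LBR, the lamin B receptor of the nuclear envelope, was at 0.24, the hyaluronan receptor and spindle protein HMMR at −0.30 and HMGB2 at −0.068.

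Whether the strong KD difference changed from day 4 to day 13 was tested as an interaction, in which 0% of 17676 genes passed in limma-voom (955 at an unadjusted p under 0.05; 5 passed in the edgeR quasi-likelihood test and 0 in DESeq2) and 0 of the 40. The median of the 40 was 0.10, against −0.0066 over all genes, and it depended on the method: 0.019 with DESeq2 and −0.00015 with log2 total UMIs as a covariate. The 4 genes with an unadjusted p under 0.05 (10% of the 40, against 5.4% of all genes) were CDK1 and its partners CKS2, CCNB2 and CKS1B. CKS2 was at 134 and 114 CPM with SFFV/sh-XIAP and 141, 149 and 129.9 CPM with SFFV/sh-CTRL at day 4, and at 138, 142 and 160.1 CPM and 105 and 105 CPM at day 13, so that the means of the 2 constructs were in the opposite order. The change was 0.61 (standard error 0.208; 95% interval 0.19 to 1.03) on the log2 scale (adjusted p = 0.809). CCNB2 was at 38.8 and 29.1 CPM with strong KD and 49.4, 58.2 and 34.7 CPM with the control at day 4, against 60.2, 50.8 and 53.9 CPM and 25.6 and 45.4 CPM at day 13, a change of 1.04 (standard error 0.437; 95% interval 0.15 to 1.92). The changes of CKS1B and CDK1 were 0.74 (adjusted p = 0.916, standard error 0.317) and 0.38 (adjusted p = 0.916, standard error 0.178). Among the lower genes CDC25C was at −0.68 and GTSE1, a microtubule-associated protein of G2, at −0.42. Of the 40 intervals, 9 lay within 1.5-fold, and day 4 rests on 2 samples with strong KD and day 13 on 2 with its control.

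Genes that work beside the 40 were taken from further lists. The 5 further lists held 111 genes, of which 110 were in the table and 108 were tested at days 10 and 13. In 9 of the 11 comparisons 0 of them passed in either direction, and in both comparisons with day 4 the 1 lower gene was CDKN1A. With strong KD, 13 of 19 further APC/C genes had a higher estimate, with a median of 0.083, and 12 of 18 condensin and cohesin genes, with a median of 0.053. Of the other kinetochore and spindle genes 13 of 35 were higher (median −0.063), of the regulators of cell cycle transcription 10 of 22 (median −0.012), and of the CDK brakes and checkpoint kinases 7 of 14 (median −0.032). Over all genes tested, 8357 of 17683 were higher, with a median of −0.018. The 50 S phase genes had 0 calls in the 11 comparisons, with a median of 0.038 for strong and −0.06 for moderate KD.

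Some of these values rest on counts that could be shared with other genes. Pseudogenes named after 12 of the 40 genes were in the table, and they held 25.2% of the summed UMIs of CKS1B and its copies and 19.2% of those of UBE2C, against 4.09% or less for the other 10. Adding them to the parent gene changed no call of a member. Of the 40 genes, 15 overlap a gene on the opposite strand, and for CCNA2, CDC25C, CENPF and SMC4 that gene had more than 100 UMIs. CENPA overlaps a gene on its own strand that held 457 UMIs, against 621 for CENPA. Whether the counting used strand is not given in the sources used here.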

How the data were processed

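Bulk RNA of sorted NALM-6 cells had been profiled by prime-seq, a 3′ UMI method. The authors deposited 1 table of UMI counts per Ensembl gene for 31 samples; the submitters' processing notes name STAR 2.6.0a and the builds GRCh38, hg38, GRCm38 and mm10. The deposited counts were used unchanged. Groups were taken from the sample labels. Genes above 1 CPM in at least 1/3 of the samples of a fit were kept, scaled by TMM (edgeR 4.0.16) and fitted with limma-voom (limma 3.58.1, R 4.3.3), with Benjamini-Hochberg adjustment over all genes tested and a threshold of 0.25, as in the study. Construct and day were additive terms in the fits of days 10 and 13 (21 samples) and of all days (31 samples), construct alone was used at day 4 (10 samples), and the change of the strong KD difference came from 1 mean for each of 12 groups. Single genes were compared by exact two-sided permutation of mean CPM (scipy 1.17.1).

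CDK1, CCNB1, TOP2A, MKI67 and PLK1 were named, as were genes past the threshold and the most and least abundant gene. In each comparison the 2 higher and 2 lower genes of smallest p were also named. Values by sample were given for some of these and group means or a fold change alone for others. CKS2 was given by sample with strong KD outside this rule. From other lists, genes past the threshold were named. ECT2, AURKA and other genes described by role were added after their values were seen. The members and lists were chosen with earlier results of these data known. Other settings tried were DESeq2 1.42.0, its size factors alone, the edgeR quasi-likelihood test, no filter, an adjusted p of 0.05, log2 total UMIs as a covariate, the replicate number as a block, culture (construct and replicate number) as a random block, single days, and leaving out both shallow libraries or each sample. Fits were tested on simulated counts. The depth of 312852 to 1153668 UMIs per sample limits genes of low counts. Promoter sequences came from RefSeq.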

Additional observations from a re-analysis of the deposited data

Results flagged for a closer look

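In 96 groups of 4 to 6 samples (1 construct at days 10 and 13, over 24 measures), 2 single samples lay further from the rest than Dixon's 95% critical value allows. Chance gives about 1 in 20 such groups, so 2 of 96 is fewer than chance alone would give. With SFFV/sh-XIAP at days 10 and 13, CCNB1 was at 89.5 CPM in day 10 replicate 2, a shallow library, and from 118 to 129 CPM in the other 5 samples. The gap took 0.730 of the range, against a critical value of 0.625 for 6 samples. With EF1a/sh-CTRL at days 10 and 13, CCNB2 was at 77.0 CPM in day 10 replicate 3 and from 38.0 to 49.1 CPM in the other 5 samples, where the gap took 0.716 of the range. For the difference between the 2 knockdown effects 0 of the 40 genes passed. The same held for the change of the strong KD difference from day 4 to day 13.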

How the results depend on the processing

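The number of the 40 genes called kept to the value reported in 107 of 111 other settings and in 224 of 239 fits with 1 sample left out. The exceptions all concern HMGB2 and BUB1B. HMGB2 was called against the other constructs with DESeq2 size factors (1 gene), and for day 10 against day 4 with DESeq2 size factors (1 gene; 0.10, adjusted p = 0.0437) and with no filter (2 genes with BUB1B); for day 13 against day 4 it was lost in the edgeR quasi-likelihood test (0 genes). HMGB2 also passed for day 10 against day 4 (0 to 1 gene) without 1 of 15 samples, namely at day 4 EF1a/sh-XIAP replicate 1, SFFV/sh-CTRL replicates 2 and 3 and SFFV/sh-XIAP replicate 3, at day 10 EF1a/sh-CTRL replicate 2, SFFV/sh-CTRL replicate 2 and SFFV/sh-XIAP replicate 1, and at day 13 each EF1a/sh-CTRL and SFFV/sh-XIAP sample and EF1a/sh-XIAP replicates 1 and 2, with log2 fold changes of 0.082 to 0.103. For day 13 against day 4 it passed without each sample (1 gene). The cause was not tested. NUSAP1 turned from −0.87 to 0.25 for the strong minus the moderate KD effect with the day 10 samples only. The median of the 40 for that effect moved to 0.068 with no filter and 0.13 with day 10 only, and that of the change from day 4 to day 13 to 0.019 with DESeq2 and −0.00015 with log2 total UMIs as a covariate. The module level difference of strong KD was 0.034 with summed CPM and 0.069 to 0.110 with 1 sample left out.

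The medians with 1 sample left out ran from 0.038 to 0.084 for strong KD, −0.032 to −0.00079 for moderate KD, 0.024 to 0.129 for their difference, 0.019 to 0.043 against the other constructs, −0.128 to −0.064 between the controls, −0.011 to 0.024, 0.016 to 0.058 and 0.0057 to 0.032 for day 13 against 10, 10 against 4 and 13 against 4, −0.047 to 0.028 and −0.026 to 0.046 for strong and moderate KD at day 4, and −0.025 to 0.122 for the change.

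The count of all genes called moved far more than that of the 40. In the order strong KD, moderate KD, their difference, strong KD against the others, SFFV against EF1a control, day 13 against 10, day 10 against 4, day 13 against 4, strong and moderate KD at day 4, and the change, it ran with 1 sample left out from 2 to 45, 0 to 7, 0 to 28, 56 to 216, 0 to 1, 1 to 15, 25 to 47, 49 to 107, 0 to 12, 3 to 17, and 0 to 9. Only counts that moved by over 1.5 times follow. At an adjusted p of 0.05 it was 2 for strong KD, 41 against the others, 5, 15 and 38 for the 3 comparisons of days, and 5 for moderate KD at day 4. With the edgeR quasi-likelihood test it was 49 for strong KD, 23 for the difference, 5 between controls, 4 for day 13 against 10, 8 and 0 at day 4, and 5 for the change. With DESeq2 it was 0 for strong KD, moderate KD, their difference, the controls, day 13 against 10 and both comparisons at day 4, 54 against the others and 21 for day 10 against 4. With DESeq2 size factors it was 30 for strong KD, 0 and 5 at day 4, and 5 for the change. With no filter it was 4, 19, 5 between controls, 68 for day 13 against 10, 8868 for day 10 against 4, 11 and 29 at day 4, and 1 for the change; that setting moved the median of all genes for day 10 against 4 to 0.194. With log2 total UMIs as a covariate it was 3 for strong KD, 3 for the difference, 72 against the others, 24 for day 13 against 10, 100 for day 10 against 4, 11 for strong KD at day 4, and 1 for the change. Without both shallow libraries it was 42, 6, 0 for the difference, 0 between controls, 5 for day 13 against 10, 28 for day 10 against 4, and 3 for the change. With day 10 only it was 23 for moderate KD, 34 for the difference and 3 between controls, and with day 13 only 8, 0, 95 against the others and 0 between controls.

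The labels do not say whether same-numbered samples share a culture. Deviations of same-numbered samples of 1 day correlated at 0.0018 over 40 pairs, against −0.00087 over 79 pairs with other numbers. The variance within groups was a median of 1.04 times counting error over all genes. Correlations near 0 therefore cannot show whether the numbers are paired. With the replicate block the count of genes was 7 for strong KD, 0 for moderate KD, 0 between controls, 4 for day 13 against 10, 25 and 5 at day 4, and 5 for the change, and no call among the 40 genes changed. NUSAP1, XIAP and CDC25C had medians of 5, 6 and 9 UMIs per sample, which limits the precision of their values.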
